A study of Mus musculus with 8 samples.

Results

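The proteasome genes described here are those whose array annotation carries a subunit symbol of the series Psma, Psmb, Psmc, Psmd or Psme, with the tissue-specific and inducible core subunits left to a separate list. The rule took 37 genes with 56 probes, out of 16562 named genes and 25662 probes on the array. No expression value entered the rule itself, though the subunits were chosen with earlier results of these data known. By role the genes fell into 7 alpha and 7 beta subunits of the 20S core, 6 ATPases, 3 non-ATPase subunits of the base, 7 of the lid, 3 assembly chaperones that bear Psmd names, and 4 activators. No probe carries the symbol Psmd3, so that lid subunit was not analysed here. RNA was hybridized to Illumina bead arrays, 4 for each of 2 genotypes, from neural progenitor cells (labelled NPC) of mouse embryos at E14.5 on a mixed C57BL/6 X 129S1/SvlmJ background. The control genotype was Prmt5F/F, a floxed Prmt5 gene with no Cre named. The Prmt5-depleted genotype was Prmt5F/FNes, the same floxed gene with Nestin-Cre, a Cre recombinase active in neural progenitors. As the controls carry no Cre, effects of Cre and of Prmt5 loss cannot be told apart. Nothing in the labels ties the 4 arrays of a genotype to different embryos or cultures, and the spread behind each p-value may therefore be technical.

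The proteasome is the barrel-shaped protease that degrades proteins tagged with ubiquitin. Its 20S core stacks rings of alpha subunits, which gate the entry, around rings of beta subunits, of which Psmb5, Psmb6 and Psmb7 carry the active sites. The 19S cap, made of a base with an ATPase ring and a lid, binds the ubiquitin tag, removes it, unfolds the substrate and threads it into the core, and cap and core together form the 26S proteasome. The activators Psme1 and Psme2, the PA28 alpha and beta subunits, can cap the core in place of the 19S particle, are induced by interferon gamma and take part in making peptides for antigen presentation. When proteasome capacity falls short, the transcription factor NRF1 (gene Nfe2l1) raises the genes of the core and cap together through antioxidant response elements in their promoters.

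All values are normalized log2 signals of a probe, and every difference is the Prmt5-depleted mean minus the control mean. Prmt5, the arginine methyltransferase whose gene was deleted and the check of the labels, lay at 10.02, 10.48, 10.54 and 10.52 on the control arrays and at 7.39, 7.84, 7.32 and 8.21 on the Prmt5-depleted arrays at its brightest probe, a fall of 6.49-fold, and its other probes gave -2.60 and -3.08. The arrays correlated at 0.981 to 0.994 within a genotype and at 0.913 to 0.934 between genotypes, and no pair of arrays held identical values. A principal component with 76.1% of the variance separated the genotypes. The second, with 9.85%, set control 4 and Prmt5-depleted 1 and 3 apart from the other arrays. Of 10 neural stem cell and radial glia markers with a probe, 7 were kept, which means detected on at least 4 of the 8 arrays, and Pax6 and Msi1 were detected on no array. Of these 7, Hes5, Hes1 and Sox2 fell by 8.79-fold, 2.63-fold and 2.32-fold, and Vim and Nes rose by 1.46-fold and 1.32-fold. The other kept probe of Nes gave -0.09 and did not pass (limma adjusted p over all probes = 0.676). Cell type markers moved with genotype. The summed linear signal of the stem cell markers, in which bright Slc1a3 and Vim weigh most, was 32201 to 36122 on control and 31617 to 35088 on Prmt5-depleted arrays. That of the neuron markers, 8 of 10 kept, was 7588 to 8402 and 21833 to 24174, with Snap25 and Nefl on no array. Bright Map2, Gap43 and Stmn2 weigh most in it. Of the 8 neuron markers tested, 7 rose and 0 fell. Tubb3, detected on 2 of 4 arrays of each genotype, did not pass (-0.18, limma adjusted p = 0.273). The other kept probes of Map2 gave 0.27 and 0.01 and did not pass (limma adjusted p over all probes 0.116 and 0.965). For the oligodendrocyte lineage, 6 of 6 kept, it was 35105 to 39270 and 23165 to 27514. In that list Pdgfra and Gpr17 were detected on 4 of 4 control and 0 of 4 Prmt5-depleted arrays, while Mbp rose by 4.16-fold at its only kept probe. The other Mbp probes, not kept, gave -0.02 and 0.20. For mesenchymal, pericyte and meningeal markers, 3 of 5 detected on some array, the sum was 183 to 194 and 568 to 931, with Col1a1 and Pdgfrb on no array. Erythroid Hba-a1 was detected on 0 of 4 control and 4 of 4 Prmt5-depleted arrays and was at least 5.78-fold higher. It entered the test only through the latter arrays, and Alas2, the other erythroid marker with a probe, was on no array. Microglial markers, 3 of 6 on some array, summed to 152 to 166 and 165 to 205, with Itgam, Tyrobp and C1qa on no array. Endothelial markers, 1 of 4 on some array, summed to 113 to 119 and 106 to 125. Astrocyte markers, 4 of 6 on some array, summed to 3030 to 5176 and 3136 to 3580, with bright Aldoc weighing most. Aqp4 among them was detected on 3 control and 0 Prmt5-depleted arrays. Of the 3 astrocyte markers tested, 1 rose, Slc1a2 by 2.17-fold at its brightest probe, and 0 fell. The part of these shifts in any result given here was not tested, and a change in the share of a cell type cannot be told apart from a change in RNA per cell.

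Most proteasome genes differed little between the genotypes. Of the 35 subunit genes that could be tested, 3 rose in the Prmt5-depleted cells, the activators Psme1 and Psme2 and the alpha subunit Psma4, and 0 fell, at an adjusted p under 0.05 in limma's moderated test over all genes. Over all 9001 genes tested, 48.6% passed this threshold, 24.0% higher and 24.5% lower in the Prmt5-depleted cells. Among the 32 subunit genes that did not pass, 0 had an unadjusted p under 0.05. Their differences ran from -0.32 to 0.22, and the 95% intervals of 31 of them lay within 1.5-fold of no change in either direction. The exception was Psmd2. Counting the called Psma4 as well, 32 of 35 subunit genes had such an interval, against 37.2% of all genes tested. The median size of the difference, without its sign, was 0.11 for the subunit genes and 0.37 for all genes, while the median standard errors were 0.12 and 0.14.

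**Figure D1:**
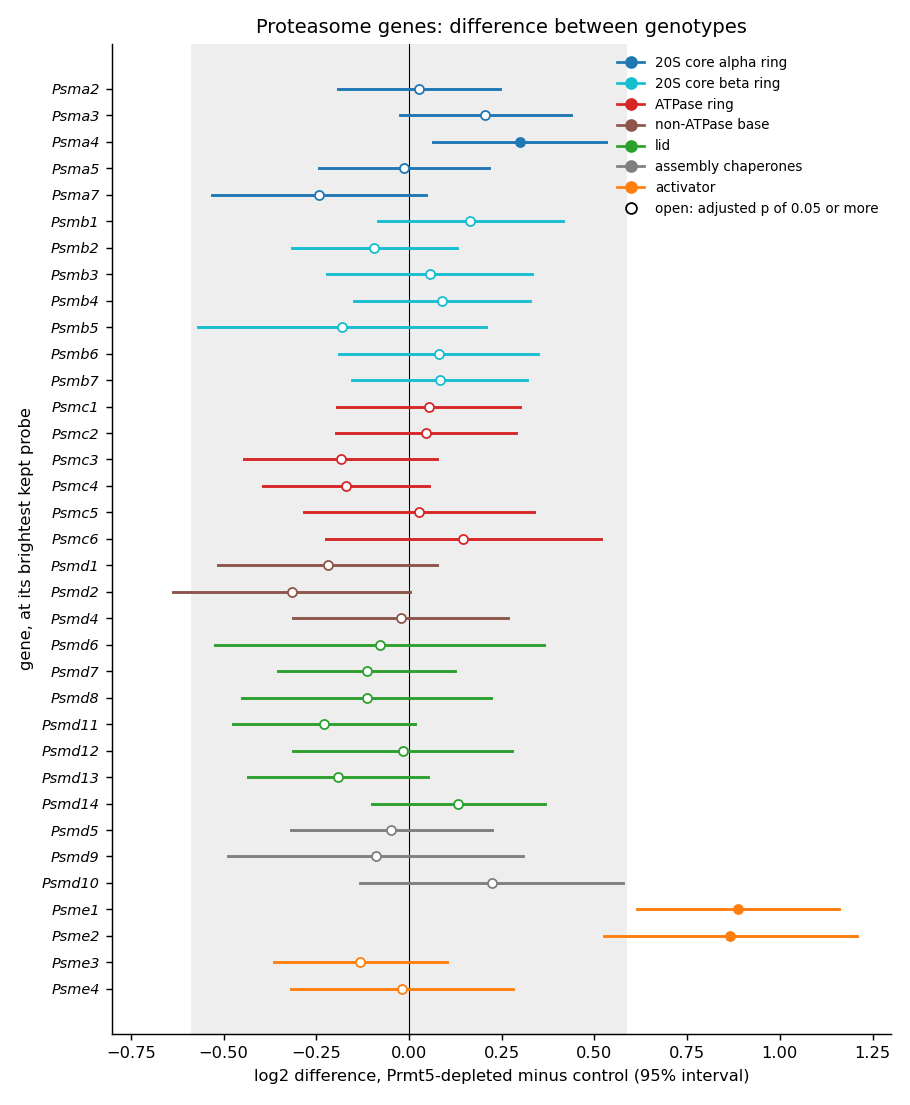
Difference between the genotypes for each of the 35 proteasome genes tested, at its brightest kept probe, with its 95% interval on the log2 scale, coloured by class. Filled points passed an adjusted p of 0.05 and the grey band spans 1.5-fold in either direction. Psme1 and Psme2 stand at 0.89 and 0.87, while the other genes lie between -0.32 and 0.30.

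Signal strength differed between the subunit genes and the array as a whole, since many subunits are abundant. Among genes with a mean signal of at least 11, 45.8% of 991 genes were called, and 1 of 18 subunit genes, Psma4. The groups of 4 arrays did not overlap for 5 of the 35 subunit genes (Psma3, Psma4, Psmc4, Psme1 and Psme2), against 44.8% of all genes tested. The signed medians were -0.02 for the subunit genes and -0.04 for all genes.

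**Figure D2:**
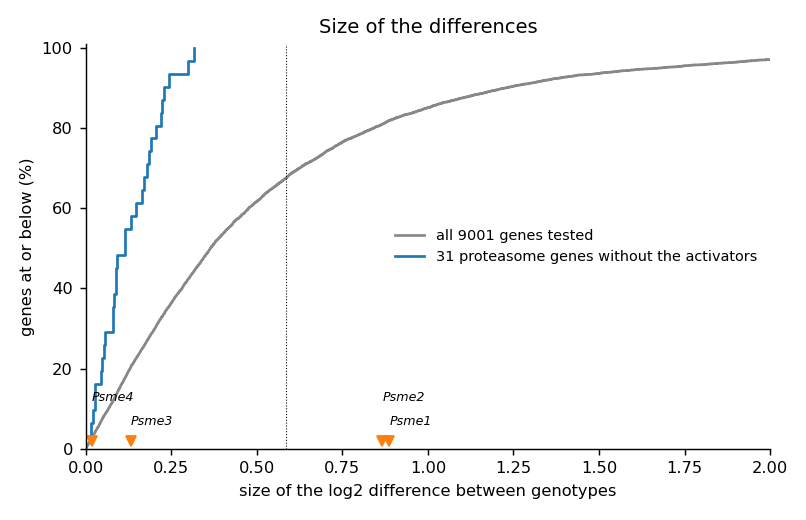
Cumulative share of genes, in percent, against the size of the log2 difference between genotypes, for all 9001 genes tested and for the 31 proteasome genes other than activators. Triangles mark the activators and the dotted line 1.5-fold. The proteasome curve reaches 100 percent at 0.32, where the curve of all genes is still far below it, and Psme1 and Psme2 lie beyond 0.8. The horizontal axis stops at 2 and leaves out larger differences.

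The alpha ring had 5 genes tested, of which Psma4 rose and 0 fell, with a median of 0.03. Psma4 lay at 12.12, 12.20, 12.30 and 12.15 on the control arrays and at 12.52, 12.59, 12.36 and 12.49 on the Prmt5-depleted arrays. Every Prmt5-depleted array was above every control array, by a small margin between control 3 and Prmt5-depleted 3. The rise was 1.23-fold (difference 0.30, SE 0.11, 95% interval 0.06 to 0.53, limma adjusted p = 0.0368), and it was past the threshold in 9 of the 18 alternative settings tried. Psma3 was at 13.05 to 13.10 on the control arrays and at 13.19 to 13.43 on the Prmt5-depleted arrays, and its difference of 0.21 did not pass (limma adjusted p = 0.129). Psma7 had the most negative value of the ring, -0.24 (95% interval -0.53 to 0.04). For Psma1 and Psma6 the only probe of each was detected on no array, so the ring was measured in part.

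The beta ring had 7 genes tested, of which 0 passed in either direction, with a median of 0.08 and the smallest adjusted p for Psmb1, at 0.253 in limma. Psmb5, the chymotrypsin-like active subunit, lay at 10.06, 10.01, 10.50 and 10.59 on the control arrays and at 10.34, 10.20, 10.20 and 9.70 on the Prmt5-depleted arrays. The groups overlapped, and the difference was -0.18 with a 95% interval of -0.57 to 0.21. Psmb6, the caspase-like active subunit, lay at 12.34, 12.53, 12.49 and 12.74 on the control arrays and at 12.71, 12.49, 12.71 and 12.50 on the Prmt5-depleted arrays. These ranges overlapped too, with a difference of 0.08 and a 95% interval of -0.19 to 0.35. Psmb7, the trypsin-like active subunit, had 3 kept probes with differences of 0.08, 0.01 and -0.01. The 4 beta subunits without an active site (Psmb1, Psmb2, Psmb3 and Psmb4) ran from -0.09 to 0.17.

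The promoters of Psmb5 and Psmb6 are printed because they are the active subunits with a window in the table used, and both windows hold the core of the antioxidant response element, the site read by the NRF1 and NRF2 factors. Each is the RefSeq window of 250 bases before to 50 after the annotated gene start on GRCm38.p6, 5′ to 3′ on the gene's strand. That of Psmb5 is chr14:54617946-54618245 on the minus strand and that of Psmb6 is chr11:70525107-70525406 on the plus strand. Capitals mark each match, on either strand, to TGACNNNGC (antioxidant response element core), CCAAT (NF-Y box), GGGCGG (GC box), TTCNNNGAA (interferon gamma activated site) or the interferon-stimulated response element core, which is GAAA followed, after any pair of bases, by GAAA. A match describes the letters and is no proof of a bound site.
Psmb5: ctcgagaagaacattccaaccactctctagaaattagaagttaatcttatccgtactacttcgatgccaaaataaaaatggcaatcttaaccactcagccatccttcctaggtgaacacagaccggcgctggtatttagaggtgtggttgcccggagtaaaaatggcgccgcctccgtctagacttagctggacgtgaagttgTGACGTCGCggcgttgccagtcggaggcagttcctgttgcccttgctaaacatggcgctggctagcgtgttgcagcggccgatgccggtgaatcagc
Psmb6: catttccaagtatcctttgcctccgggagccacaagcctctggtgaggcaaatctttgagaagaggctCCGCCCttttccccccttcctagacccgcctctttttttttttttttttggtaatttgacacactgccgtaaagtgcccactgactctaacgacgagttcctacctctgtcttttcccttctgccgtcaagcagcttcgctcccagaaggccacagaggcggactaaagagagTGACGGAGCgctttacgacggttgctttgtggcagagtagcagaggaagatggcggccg
Of the 37 subunit genes 32 had a window. The antioxidant core was in 6 of the 32 (18.8%), against 14.0% of all 27025 genes with a window. The GC box was in 21 (65.6%, against 38.2%), the NF-Y box in 12 (37.5%, against 41.1%), the interferon-stimulated core in 4 (12.5%, against 3.99%) and the interferon gamma activated site in 1 (3.13%, against 9.55%). The 27025 genes include many that were not tested on the arrays. The 4 with the interferon-stimulated core were Psmb3, Psmd4, Psmd9 and Psme1, of which only Psme1 was called at its brightest probe.

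The 6 ATPases, which unfold substrates and open the core, gave 0 calls and a median of 0.04. Their differences ran from -0.18 for Psmc3 to 0.15 for Psmc6, whose probe was dim. Psmc4 lay at 12.47, 12.50, 12.43 and 12.56 on the control arrays and at 12.41, 12.33, 12.30 and 12.24 on the Prmt5-depleted arrays. Its groups did not overlap, but the difference was small and did not pass (-0.17, 95% interval -0.39 to 0.05, limma adjusted p = 0.191).

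In the rest of the cap, 0 of the 10 genes of the lid and the non-ATPase base passed. The values of 9 of these 10 were negative, with a median of -0.11, and the lowest adjusted p was that of Psmd2, which in limma was 0.0944. Psmd2, a scaffold of the base that docks shuttle factors, lay at 7.49, 7.72, 7.48 and 7.76 on the control arrays and at 7.58, 7.14, 7.45 and 7.02 on the Prmt5-depleted arrays. Prmt5-depleted 2 and 4 were the low arrays, and the other pair lay within or next to the control range. Its difference was -0.32 with a 95% interval of -0.64 to 0.00, and its second probe gave -0.12. Without Prmt5-depleted 1 the adjusted p of Psmd2 in limma was 0.041, past the threshold. Psmd4, the ubiquitin receptor of the base, differed by -0.02, and Psmd1, the other large scaffold, by -0.22 (95% interval -0.51 to 0.08). In the lid, Psmd11 was at -0.23, Psmd13 at -0.19 and Psmd7 and Psmd8 both at -0.11, with none past the threshold. Psmd14, the deubiquitinase of the lid, was the 1 gene of these 10 with a positive value, 0.13 (95% interval -0.10 to 0.37).

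The chaperones Psmd5, Psmd9 and Psmd10, which help assemble the base and then leave it, gave 0 calls at their brightest probes, with differences of -0.05, -0.09 and 0.22. The probes of Psmd9 differed. Its brightest, ILMN_2593662, lay at 6.87, 6.98, 7.29 and 7.45 on the control arrays and at 6.58, 7.16, 7.33 and 7.15 on the Prmt5-depleted arrays. The groups overlapped there. The other, ILMN_2594811, lay at 6.94, 6.91, 6.68 and 7.40 on the control arrays and at 6.50, 5.86, 6.34 and 6.57 on the Prmt5-depleted arrays. At that probe every Prmt5-depleted array was below every control array, and the signal fell by 1.58-fold (difference -0.66, limma adjusted p over all probes = 0.0122). Over all kept probes, 4 subunit probes were higher and 1, this one, was lower, out of 50, against 46.7% of 13196 probes called in either direction. This probe was singled out after its values were seen. Of the 13 subunit genes with several kept probes, 10 had probes of 1 sign and 3 did not (Psmd7, Psmc5 and Psmb7), and no gene had probes called in opposite directions. The median range between probes of a gene was 0.15 and the widest was the 0.57 of Psmd9.

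Among the 4 activators, Psme1 and Psme2 rose by about the same amount, while Psme3 and Psme4 did not pass. Psme1 at ILMN_2986309 lay at 9.42, 9.65, 9.80 and 9.82 on the control arrays and at 10.64, 10.47, 10.67 and 10.46 on the Prmt5-depleted arrays. The groups were well apart, and the rise was 1.85-fold (difference 0.89, SE 0.12, 95% interval 0.61 to 1.16, limma adjusted p = 0.000124). Its second probe lay at 8.97, 9.06, 8.96 and 9.36 on the control arrays and at 9.97, 9.74, 9.87 and 9.71 on the Prmt5-depleted arrays. That is again a separation with no overlap, by 1.66-fold (limma adjusted p over all probes = 0.000643).

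Psme2, its partner in the PA28 ring, lay at 7.86, 7.98, 7.98 and 8.34 on the control arrays and at 9.16, 8.71, 9.10 and 8.65 on the Prmt5-depleted arrays. Control 4 was the highest control array and Prmt5-depleted 1 and 3 the highest of their genotype, the same arrays that the second principal component sets apart, and the groups did not overlap. The rise was 1.82-fold (difference 0.87, SE 0.16, 95% interval 0.53 to 1.21, limma adjusted p = 0.000727). Without those 3 arrays the differences were 0.84 for Psme1 and 0.73 for Psme2, both still past the threshold in limma, with adjusted p of 0.00214 and 0.00202. RefSeq also holds a protein-coding gene named Psme2b. The probe sequences were not used here, so signal from such a copy cannot be told apart from that of Psme2.

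Psme3, the nuclear PA28 gamma subunit, which is not part of the PA28 alpha and beta ring, lay at 9.54, 9.40, 9.33 and 9.28 on the control arrays and at 9.24, 9.23, 9.24 and 9.32 on the Prmt5-depleted arrays. The groups overlapped through control 4 and Prmt5-depleted 4, and the difference was -0.13 (95% interval -0.37 to 0.10). Psme4, the PA200 activator, had a difference of -0.02 at its brightest probe (95% interval -0.32 to 0.28). Its dimmer probe gave -0.49, with a limma adjusted p over all probes of 0.0538 and overlapping groups.

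**Figure D3:**
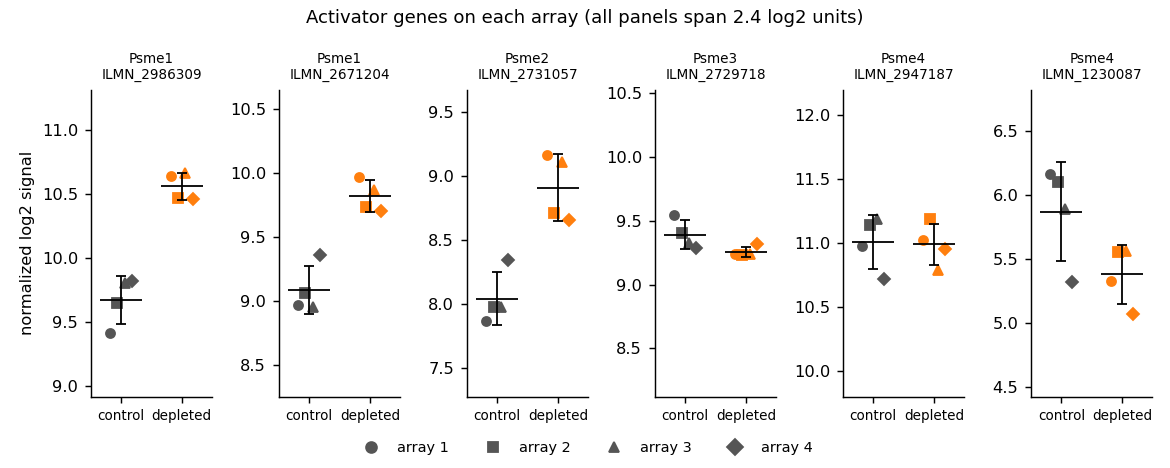
Normalized log2 signal of each activator probe on every array, with the genotype mean and SD as bars and the array number as the symbol. The panels have different vertical ranges of equal length, so that differences can be compared but levels cannot. Both Psme1 probes and the Psme2 probe separate the genotypes, and the Psme3 and Psme4 probes overlap.

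The promoters of Psme1 and Psme2 are printed because these genes carry the largest changes among the subunits and lie close together on chromosome 14. The Psme1 window is chr14:55578244-55578543 on the plus strand and the Psme2 window shown is chr14:55590972-55591271 on the minus strand, of 2 that RefSeq gives for it, both on GRCm38.p6. Capitals mark matches to the same 5 motifs.
Psme1: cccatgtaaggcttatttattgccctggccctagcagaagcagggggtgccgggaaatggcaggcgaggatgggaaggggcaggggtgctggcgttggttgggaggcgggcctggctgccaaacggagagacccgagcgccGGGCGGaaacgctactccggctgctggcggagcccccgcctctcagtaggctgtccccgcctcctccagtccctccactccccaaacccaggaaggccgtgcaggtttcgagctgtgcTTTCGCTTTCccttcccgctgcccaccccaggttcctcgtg
Psme2: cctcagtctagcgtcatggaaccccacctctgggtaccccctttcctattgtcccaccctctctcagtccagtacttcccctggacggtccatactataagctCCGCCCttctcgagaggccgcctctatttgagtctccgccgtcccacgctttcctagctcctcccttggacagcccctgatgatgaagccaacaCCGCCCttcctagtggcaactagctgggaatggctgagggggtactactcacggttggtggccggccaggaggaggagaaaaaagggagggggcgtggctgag
The Psme1 window held 1 GC box and 1 interferon-stimulated core, the latter just downstream of the annotated start. Each Psme2 window held 2 GC boxes and none of the other motifs. The 5 motifs of the search are short, the interferon motifs were added after the values were seen, and no match in a window says only that these letters are not there.

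The genes that border Psme1 and Psme2 were then set beside them, as a choice made after their values were seen. Emc9, which lies between them and encodes a subunit of the endoplasmic reticulum membrane insertion complex, rose by 2.79-fold (limma adjusted p = 1.89e-05). Of the 11 neighbours taken, 1 between and 5 on each side, 7 were tested. Of the 6 detected in both genotypes, 3 rose and 0 fell, where 24.0% of all genes rose. Rec8, the meiotic cohesin subunit, rose by 6.86-fold (SE 0.42 on the log2 scale, limma adjusted p = 0.000211), and Irf9, the DNA-binding part of the type I interferon-activated complex, by 1.79-fold (limma adjusted p = 0.00278). Cpne6, a calcium-dependent phospholipid-binding protein, was detected on 0 of 4 control arrays, entered the test only through the Prmt5-depleted arrays and was at least 1.32-fold higher. Rnf31 (0.12), Dcaf11 (-0.02) and Ipo4 (-0.18), which stand among them in the same stretch, did not pass. Prmt5 lies on the same chromosome, with 35 protein-coding genes between it and Psme1 and 3 between it and Psmb5. The 37 subunit genes lie on 15 chromosomes, and chromosome 14 also holds Psmb5, Psmc6 and Psmd6, none of which passed.

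**Figure D4:**
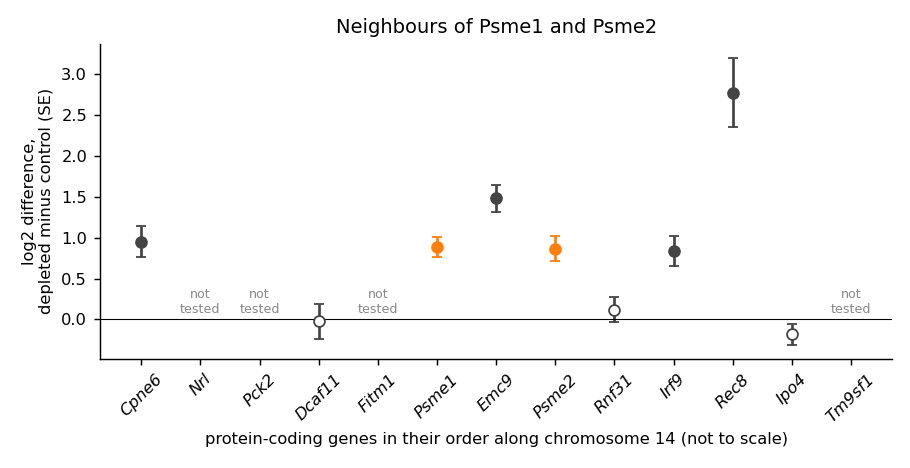
Log2 difference between genotypes, with its standard error, for Psme1 and Psme2 (orange) and the neighbouring protein-coding genes (grey) in their order along chromosome 14, not to scale. Filled points passed an adjusted p of 0.05. Emc9, Irf9 and Rec8 stand at 1.48, 0.84 and 2.78, while Dcaf11, Rnf31 and Ipo4 lie near 0. Cpne6 is drawn at its fitted 0.95 although no control array detected it, and 4 genes were not tested.

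Genes of the interferon response and class I antigen presentation, receptor chains included, were taken as a further list outside the proteasome. It too was chosen after the values of Psme1 and Psme2 were seen. Of its 17 genes 11 were tested, and the class I genes H2-K1 and H2-D1 were among those not kept. Of the 10 detected in both genotypes, 1 rose and 1 fell, where 48.6% of all genes were called. The gene that rose was Irf9, given above. Tap1, a peptide transporter of antigen presentation, was detected on 0 of 4 control and 4 of 4 Prmt5-depleted arrays, so that it entered the test only through the latter, and was at least 1.41-fold higher. Ifngr1, the ligand-binding chain of the interferon gamma receptor, fell by 2.12-fold (limma adjusted p = 2.76e-05). The values of Irf1 (-0.08), Stat2 (-0.03), Tap2 (-0.02), B2m (0.10), Isg15 (-0.24) and Ifit3 (0.09) did not pass. Ifngr2 did not pass at its brightest probe (0.33), while its other probes, at 0.91 and 0.84, were past the threshold over all probes.

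Of the inducible and tissue-specific core subunits, which replace standard core subunits in immune cells and some tissues, 2 of 5 could be tested. Psmb10, the counterpart of Psmb7, lay at 9.04, 8.87, 9.04 and 9.20 on the control arrays and at 9.40, 9.44, 9.47 and 9.41 on the Prmt5-depleted arrays. Every Prmt5-depleted array was above every control array, a rise of 1.31-fold (difference 0.39, SE 0.11, limma adjusted p = 0.0112), and its second probe gave 0.59, also past the threshold over all probes (limma adjusted p = 0.00498). Psmb9 was detected on 1 of 4 control and 3 of 4 Prmt5-depleted arrays and did not pass (0.16, limma adjusted p = 0.456). Psmb8 had a probe that was not kept.

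Of the 4 chaperones tested that assemble the core, 2 fell and 0 rose. Of all genes, 24.5% fell and 48.6% were called in either direction. Psmg1, which with Psmg2 forms the heterodimer on which the alpha ring is built, lay at 9.38, 9.27, 9.45 and 9.46 on the control arrays and at 8.94, 8.68, 8.94 and 8.75 on the Prmt5-depleted arrays. The groups were apart, with a fall of 1.47-fold (difference -0.56, SE 0.11, limma adjusted p = 0.00163). Psmg2 lay at 10.13, 10.06, 10.18 and 10.27 on the control arrays and at 9.78, 9.36, 9.74 and 9.51 on the Prmt5-depleted arrays, which again did not overlap. It also fell by 1.47-fold (difference -0.56, limma adjusted p = 0.00313), but its second probe gave only -0.14 and did not pass (limma adjusted p over all probes = 0.417). Psmg3 was at -0.21 and Pomp, the maturation factor of the beta rings, at 0.22, neither past the threshold.

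Among other proteins that bind the 26S proteasome, 1 of 5 tested rose and 0 fell, which is near the 24.0% of all genes that rose. Usp14, a deubiquitinase that trims ubiquitin chains at the cap, rose by 1.33-fold (difference 0.41, SE 0.14, limma adjusted p = 0.0258), but without control 3, Prmt5-depleted 2 or Prmt5-depleted 3 its adjusted p in limma was 0.0774, 0.0686 and 0.0575. Uchl5, the other deubiquitinase of the cap, was at -0.28 and did not pass. Of the shuttle factors and p97, which bring ubiquitinated proteins to the proteasome, 0 of 5 passed in limma. Vcp, the p97 ATPase, was at 0.09 and Ubqln1 at -0.06 at its brightest probe. Other Ubqln1 probes gave -0.46, past the threshold over all probes, and -0.35, which did not pass (limma adjusted p over all probes 0.034 and 0.145), and a dim one was detected on 4 of 4 control and 0 of 4 Prmt5-depleted arrays. Of the ubiquitin genes and ubiquitin-activating enzymes, 1 of 6 had a probe and 0 could be tested.

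The transcription factors and targets around NRF1 gave 3 rises and 0 falls among 8 tested. Of all genes, 24.0% rose and 48.6% were called in either direction. Nfe2l1, the gene of NRF1 itself, lay at 10.75, 11.12, 11.13 and 10.07 on the control arrays and at 10.66, 11.05, 10.83 and 11.10 on the Prmt5-depleted arrays. The groups overlapped, with a difference of 0.14 (95% interval -0.33 to 0.62, limma adjusted p = 0.613). Nfe2l2, the gene of the related factor NRF2, lay at 7.41, 7.53, 7.65 and 7.67 on the control arrays and at 8.61, 8.58, 9.06 and 8.37 on the Prmt5-depleted arrays.

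The Nfe2l2 groups were far apart, a rise of 2.13-fold (difference 1.09, SE 0.15, limma adjusted p = 0.000102). Sqstm1, which encodes the p62 autophagy receptor and is a known NRF2 target, lay at 10.05, 10.18, 10.33 and 10.49 on the control arrays and at 11.13, 11.39, 11.45 and 11.50 on the Prmt5-depleted arrays. It rose by 2.15-fold with no overlap (limma adjusted p = 3.93e-05). Hmox1, heme oxygenase and another known target, rose (difference 0.59, SE 0.18, limma adjusted p = 0.0166). Without control 4 and Prmt5-depleted 1 and 3 its adjusted p in limma was 0.126. Nqo1, also a known NRF2 target, did not differ past the threshold (-0.01, 95% interval -0.46 to 0.44), and Mafg, Maff and Nfe2l3 ran from -0.06 to 0.12.

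**Figure D5:**
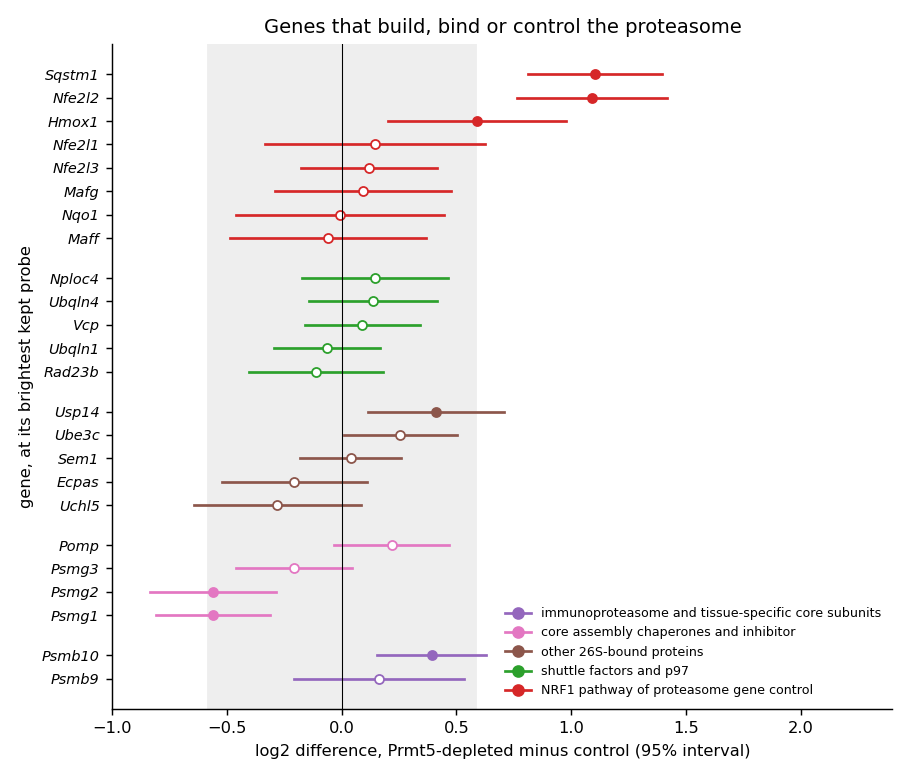
Log2 difference between genotypes, with its 95% interval, for the tested genes that build, bind or control the proteasome, coloured by list. Filled points passed an adjusted p of 0.05 and the grey band spans 1.5-fold. Sqstm1 and Nfe2l2 lie above 1, Psmg1 and Psmg2 stand at -0.56, and the shuttle factors lie within 0.15 of 0.

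Within a genotype the 28 tested genes of the 26S particle (core, ATPases, base and lid) did not lie evenly around the genotype's mean. On Prmt5-depleted 1, 24 of the 28 were above it, and on Prmt5-depleted 4, 7 were. The median deviation was 0.12 on the former and -0.10 on the latter, against 0.006 and -0.003 for all genes tested. The genes of an array are not independent of each other. On control 4, 21 of the 28 were above the genotype's mean, with a median deviation of 0.06, against 0.01 for all genes tested. On the other arrays between 9 and 16 were above it.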

How the data were processed

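Biotin-labelled RNA of 8 samples was measured on MouseRef-8 v2 arrays. Per the file headers, the authors deposited non-normalized intensity values and a detection p-value for each probe and array. The sources used here do not give the scanner software or a genome build. A second deposited table of intensity values equals a quantile normalization of the first. It served as an alternative.

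Signals were background corrected with normexp from the detection p-values, raised by an offset of 16, quantile normalized and turned into log2 values (limma 3.58.1, statmod 1.5.0, R 4.3.3). Offset and quantile steps shrink small differences of dim probes and hide a shift shared by most genes. Kept probes had detection p-values under 0.05 on 4 or more of 8 arrays, which kept 13196 of 25662 probes, and a gene was taken at its brightest kept probe. Of the 56 subunit probes 50 were kept, and the other 6 were detected on no array. Mean raw signal was 449 to 598 and 12518 to 13602 probes were detected per array. The number of arrays, 4 per genotype, limits the precision. Columns without a sample numbered 0. Genotypes were compared with lmFit and eBayes, with no covariate, in two-sided tests, adjusted by Benjamini-Hochberg at 0.05 over all genes tested, or over all probes where stated. Where all 4 arrays of a genotype failed detection, the fold is a lower bound against the lowest detected signal. The code was tested on simulated data. Probes took names from the platform annotation. Promoters and gene order come from RefSeq, GRCm38.p6.

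Named with full values are, per class, up to 3 called genes, the largest change in each direction, genes with probes called in opposite directions, up to 3 called genes per related list (2 where none was called) and Prmt5. The subunits and the lists were chosen with earlier results of these data known. The interferon list, the interferon motifs, the neighbours, the brightness limit of 11, the count of intervals within 1.5-fold, the alternatives for the second component, and Psma3, Psma7, Psmc4, Psmd9, the active beta subunits and other genes named beyond the rule were chosen after values were seen. Alternatives changed the offset, the normalization, the detection filter, the probe summary and the arrays used.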

Additional observations from a re-analysis of the deposited data

Results flagged for a closer look

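In 6 of the 92 groups of 4 arrays examined (genes and genotypes), 1 array stood apart from the other 3 by more than Dixon's 95% limit, and chance alone gives about 1 in 20 such groups. Psmb4 lay at 13.73 on control 4, against 13.48 to 13.52 on the other controls, and at 13.75 on Prmt5-depleted 4, against 13.61 on the others of that genotype. Psmd6 lay at 7.91 on Prmt5-depleted 2, against 6.94 to 7.10. Psmd10 lay at 9.19 on control 1, against 9.80 to 9.90. Psme3 lay at 9.32 on Prmt5-depleted 4, against 9.23 to 9.24, a narrow range. Prmt5 itself lay at 10.02 on control 1, against 10.48 to 10.54 on the other controls.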

How the results depend on the processing

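Over 18 alternatives 0 results reversed, in the sense of a call turning into the opposite call. Small differences that did not pass could change sign. In the lid and non-ATPase base those of Psmd4, Psmd6 (-0.30 to 0.26), Psmd7, Psmd8 and Psmd12 did. The rises of Psme1 (0.80 to 0.93) and Psme2 (0.73 to 0.96) were called in all 18, with limma adjusted p of at most 0.00214 and 0.00469, and the fall at the second Psmd9 probe too, at most 0.0391. The number of subunit genes that rose was 2 or 3, since Psma4 lost its call in 9: median scaling (0.29), the replicate block (0.0937), leaving out control 1 (0.0733), 2 (0.068) or 4 (0.0605) or Prmt5-depleted 1 (0.0762), 2 (0.0851) or 4 (0.0668), and leaving out the 3 arrays of the second component (0.0663). The number that fell was 0 to 1 when single arrays were left out (Psmd2 without Prmt5-depleted 1). With the component as a covariate it was 2 (Psma7 and Psmd2, limma adjusted p 0.0292 and 0.0102), and without the 3 arrays 1 (Psmd2, limma adjusted p 0.023). Subunit probes that fell numbered 1 to 2 over single arrays left out, 2 under the replicate block and 3 under both component alternatives. The median difference was -0.08 to 0.03 and the share of all genes called 26.6% to 54.2%. Arrays with the same replicate number deviated together at correlations of -0.13, 0.25, -0.16 and -0.38, positive for replicate 2 only. Such correlations, with 4 arrays per genotype, cannot settle whether equal numbers were paired, and the labels do not say. Under the block the genes that rose numbered 2 and those that fell 0. The cause of these changes was not tested. Dim probes (Psmc6, Psmd9, the second Psme4 probe) and the undetected Psma1 and Psma6 limit what 8 arrays show.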
